A study of Mus musculus with 9 samples.

Results

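Total RNA of N1E-115, a mouse neuroblastoma line of sympathetic neuron origin, was measured on 3 arrays labelled as Tcof1 knockdown and 3 labelled as wildtype, 6 of the 9 arrays of the study. The other 3 arrays came from N1E-115 cells overexpressing mouse Tcof1. Each group carries the letters A, B and C, and the labels do not say that the letters stand for separate cultures, so p-values cover only the spread from array to array, and this may be technical. How the knockdown of Tcof1 was made is not given in the labels, nor whether it was 1 clone. Every probe set other than the 64 controls entered the comparison, 22626 of 22690. "Knockdown" and "wildtype" below are the words of the labels. The comparison asks which transcripts differ between arrays with these labels in a neural crest-derived tumour cell.

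Tcof1 encodes treacle, a nucleolar protein that helps RNA polymerase I transcribe ribosomal RNA genes and takes part in the modification of the ribosomal RNA precursor. Loss of 1 copy in people causes Treacher Collins syndrome, in which neural crest cells that form the face are lost. A second pathway described at length here is the response to low oxygen, in which prolyl hydroxylases mark the hypoxia-inducible factor HIF for destruction while oxygen is present. When HIF persists it binds the letters ACGTG or GCGTG near its target genes and raises glucose uptake, glycolysis and mitophagy.

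Few single probe sets passed the test. With limma and an adjusted p under 0.05 as the call, 3 of 22626 probe sets passed (0.0133%), 1 higher (0.00442%) and 2 lower (0.00884%) in the knockdown arrays. An unadjusted p under 0.05 was found for 2462 (10.9%), 1344 higher (5.94%) and 1118 lower (4.94%). At an adjusted p under 0.1 there were 59 (0.261%), 38 higher (0.168%) and 21 lower (0.0928%). Against the overexpressing arrays, 937 probe sets were higher (4.14%) and 776 lower (3.43%) at an adjusted p under 0.05, a comparison that shares the knockdown arrays. Some genes given below differed from wildtype in the same direction in the overexpressing arrays, so their difference is not particular to knockdown. Words such as "rose" and "fell" are kept below for calls at 0.05, and other genes are given by their values. Differences are knockdown minus wildtype in log2(intensity + 16), given with the SE of the fit over 3 arrays a group. The 3 knockdown arrays lay all above or all below the 3 wildtype arrays for 3537 probe sets (15.6%), 1952 higher (8.63%) and 1585 lower (7.01%). Non-overlap is a description, since 3 against 3 cannot go below p = 0.1 in an exact two-sided permutation test. The plot of calls by setting shows how far the count depends on single arrays.

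**Figure D1:**
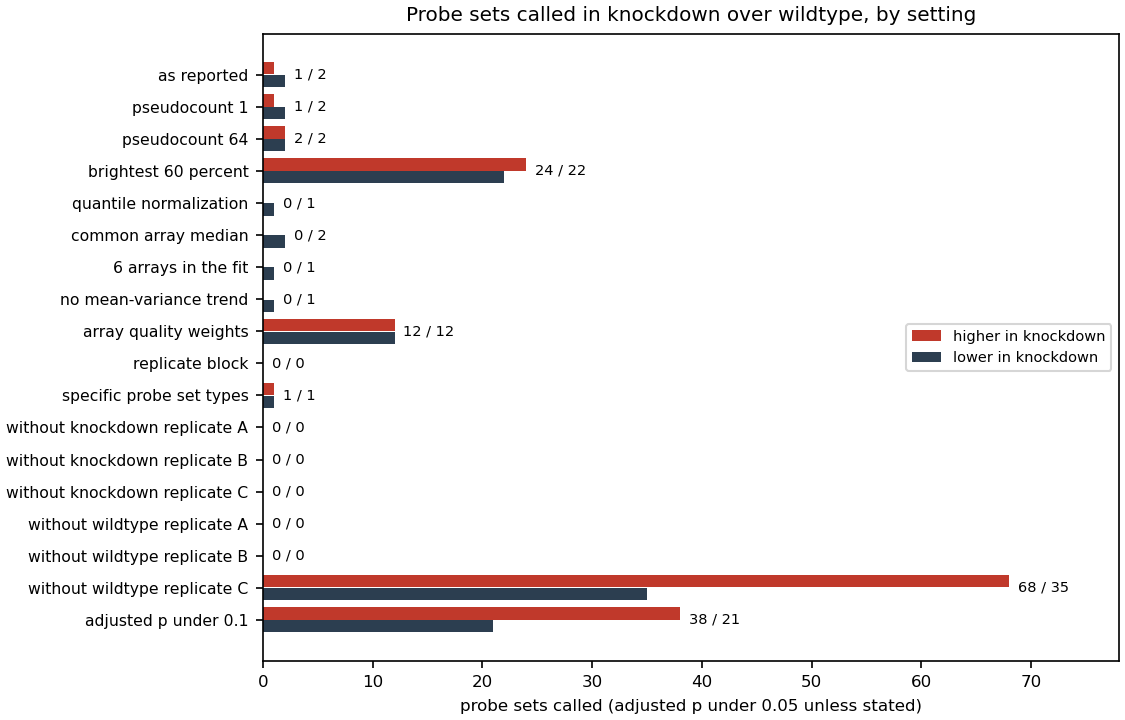
Number of probe sets called in knockdown over wildtype (horizontal axis) under the reported setting and each alternative, higher in knockdown in red and lower in dark blue, with both counts printed as higher / lower. Leaving out any 1 array other than wildtype C left 0 calls, and leaving out wildtype C gave 68 higher and 35 lower.

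Array medians lay between 164.1 and 185.95 intensity units, a ratio of 1.13, and Pearson correlations of log2 values within the knockdown and wildtype groups between 0.972 and 0.978. Wildtype array C lay nearest to the knockdown arrays: its correlation with knockdown array C was 0.978, equal to the highest within a group, while wildtype array A had 0.965 to 0.971 with the knockdown arrays. Without wildtype array C there were 103 calls, 68 higher and 35 lower, and without any 1 of the other 5 arrays there were 0. Results that lean on these arrays are given below with and without them. Of 11 measured markers of sympathetic neuroblasts, 10 were above the median intensity of 173.8 on all 6 arrays. They include Chgb, which encodes a secretory granule protein and read 16971, 18697 and 18089.6 on the knockdown and 16398, 17813 and 17657 on the wildtype arrays, and Phox2a, a transcription factor of the lineage, at 3385, 3374 and 3449.9 and 3761, 4069 and 4660.1, lower on all 3 knockdown arrays. Of the 11, limma called 0 and 1, Dbh, had an unadjusted p under 0.05.

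Tcof1 itself was not clearly lower in the knockdown arrays. Its brightest probe set read 219.8, 229 and 205 on knockdown arrays A, B and C and 168, 233 and 232 on the wildtype arrays. The groups overlapped, and wildtype array A was the lowest of the 6. The second brightest read 135, 112 and 133 against 143, 156 and 149.8, with all knockdown arrays below all wildtype arrays but a log2 difference of only -0.22 ± 0.21 (adjusted p = 0.744 in limma). The dimmest read 111, 115 and 137 against 163, 132 and 204, where knockdown array C lay above wildtype array B, at -0.40 ± 0.20 (adjusted p = 0.51). Against the overexpressing arrays the brightest probe set differed by -0.33 ± 0.17 (adjusted p = 0.267). The second brightest differed by -1.09 ± 0.21 (adjusted p = 0.0116) and the dimmest by -1.03 ± 0.20 (adjusted p = 0.0137), both lower in knockdown. So the 3 probe sets give no check of the label "knockdown" relative to wildtype.

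Treacle's partners and the other Treacher Collins genes had few members apart from wildtype. Of 14 measured, 1 lay wholly above (7.14%) and 2 wholly below it (14.3%), against 9.68% and 6.69% of 12393 genes represented by their brightest probe set. The list median was -0.02, and that of all genes 0.04. Of all 12393 genes, limma called 1 (0.00807%), a lower one, and an unadjusted p under 0.05 was found for 6.84% in the higher and 4.95% in the lower direction. An adjusted p under 0.1 was reached by 39 genes (0.315%), 26 higher (0.21%) and 13 lower (0.105%). Polr1b, the second largest subunit of RNA polymerase I, read 586, 499 and 659 in the knockdown and 681, 716 and 782 in the wildtype arrays. Those groups did not overlap, at -0.32 ± 0.12 (adjusted p = 0.357). Polr1c, a subunit shared by polymerases I and III, read 1714, 1549 and 1806 against 3244, 2209 and 1794, and wildtype array A alone was far above the rest. Its difference was -0.47 ± 0.18 (adjusted p = 0.385). Nolc1, the nucleolar phosphoprotein that pairs with treacle, was looked up after the values were seen. Its brightest probe set read 675, 753 and 830.0 against 789, 899.6 and 994 and overlapped, at -0.24 ± 0.12, and a dim one read 49.1, 22.9 and 53.8 against 141, 143 and 172, at -1.58 ± 0.29 (adjusted p = 0.0952). All 3 of its probe sets were lower in value. Plk1, a mitotic kinase, was the member wholly above wildtype, and Cul3, a ubiquitin ligase scaffold, the other member wholly below it, at 0.49 ± 0.18 and -0.26 ± 0.09.

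Across 110 measured genes of ribosome production, limma called 0, with 6 higher and 10 lower at an unadjusted p under 0.05. Of the 110, 8 lay wholly above (7.27% against 9.68% of all genes) and 15 wholly below wildtype (13.6% against 6.69%), and the median was -0.02. The group of 14 genes of RNA polymerase I and its factors had a median of -0.17 and array medians of -0.18, -0.28 and -0.12 in the knockdown arrays, below the -0.05 to -0.01 of the wildtype arrays. Of the 14, only Polr1b lay wholly below wildtype (7.14% against 6.69%), 0 lay wholly above, and 2 were lower at an unadjusted p under 0.05. Nop14, a factor of the small subunit processome, read 607, 525 and 604 against 742, 819.9 and 782. All 3 knockdown arrays were lower, at -0.43 ± 0.10 (adjusted p = 0.173). Pes1, which acts in large subunit assembly, read 862, 689.8 and 829 against 1016, 1074 and 987, at -0.37 ± 0.10 (adjusted p = 0.24), also without overlap, while its other probe set had the opposite sign. In the other direction, Ruvbl2, a helicase subunit that assembles nucleolar ribonucleoproteins, read 3420.5, 3774 and 3802 against 2226, 2921 and 2989.5. All 3 knockdown arrays were higher, at 0.44 ± 0.13 (adjusted p = 0.272). Overexpressing minus wildtype was -0.30 for Nop14, -0.02 for Pes1 and 0.55 for Ruvbl2. Of 45 cytosolic ribosomal protein genes, 1 lay wholly above (2.22% against 9.68% of all genes) and 3 wholly below (6.67% against 6.69%). Limma called 0, with 1 higher and 2 lower at an unadjusted p under 0.05 and a median of -0.0036. Of 29 genes of the p53 and nucleolar stress list, which holds targets that p53 switches on when ribosome production fails, 3 lay wholly above and 3 wholly below, 10.3% each way against 9.68% and 6.69%. Cdkn2a, which encodes the cell cycle inhibitors p16 and ARF, read 270.5, 170.5 and 314 against 447, 497 and 387, at -0.81 ± 0.22 (adjusted p = 0.237). Overexpressing minus wildtype was also -0.81 for Cdkn2a, so this difference was not particular to knockdown.

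The 3 calls fell on 2 genes and a histone probe set. Srrm1 encodes a splicing coactivator with serine- and arginine-rich repeats. Of its 4 probe sets, 1 read 30.1, 30.6 and 29.4 in the knockdown and 274, 239 and 157 in the wildtype arrays. The knockdown values were nearly identical and far below every wildtype value, and the probe set fell by 2.35 ± 0.25 on the log2 scale (limma, adjusted p = 0.0324). From the overexpressing arrays the same probe set differed by -2.23 ± 0.25 (adjusted p = 0.000845). The other 3 probe sets of the gene did not show a change of that size. The brightest read 882, 854 and 897 against 1355, 1083 and 1095, without overlap but at -0.41 ± 0.11 (adjusted p = 0.251). The other 2 overlapped and had differences of -0.45 ± 0.22 and 0.32 ± 0.27, which point in opposite directions.

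Arih2 encodes an Ariadne family ubiquitin ligase that works with neddylated cullins. The brightest of its 4 probe sets, one whose design allows it to bind more than a single transcript, read 1163, 1158 and 1101 against 2428, 2315 and 2138 and fell by 0.996 ± 0.12 (limma, adjusted p = 0.0336). The knockdown arrays lay close together and far below the lowest wildtype array. The overexpressing arrays read 1278, 1683 and 1747, also below every wildtype array, and differed from wildtype by -0.55 ± 0.12 (adjusted p = 0.0141). The third brightest read 258, 267 and 444 against 569.5, 449.6 and 480.0, without overlap, at -0.64 ± 0.19 (adjusted p = 0.278). The dimmest and the second brightest overlapped, at -0.33 ± 0.22 and 0.09 ± 0.14. Of 19 Ariadne and cullin ligase genes, 3 lay wholly above and 3 wholly below wildtype, 15.8% each way against 9.68% and 6.69% of all genes.

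The third call was a probe set annotated to 10 genes of the H2A histone family and to no single one. It read 8462, 9235 and 8698 in the knockdown and 4371, 4414 and 5649 in the wildtype arrays, and rose by 0.88 ± 0.10 (limma, adjusted p = 0.0336). In the overexpressing arrays it read 12224, 12626 and 12549, above both other groups. H2A proteins package newly replicated DNA, and their genes are transcribed in S phase. The other 15 probe sets annotated only to replication-linked histone genes, looked up after these values were seen, all had overlapping groups, with differences from -0.71 to 0.49. Each of the 3 calls was lost without any 1 array other than wildtype C, with adjusted p up to 0.175. Srrm1 kept its call in 9 of 16 alternatives, Arih2 in 7 of 15 and the histone probe set in 6 of 16.

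**Figure D2:**
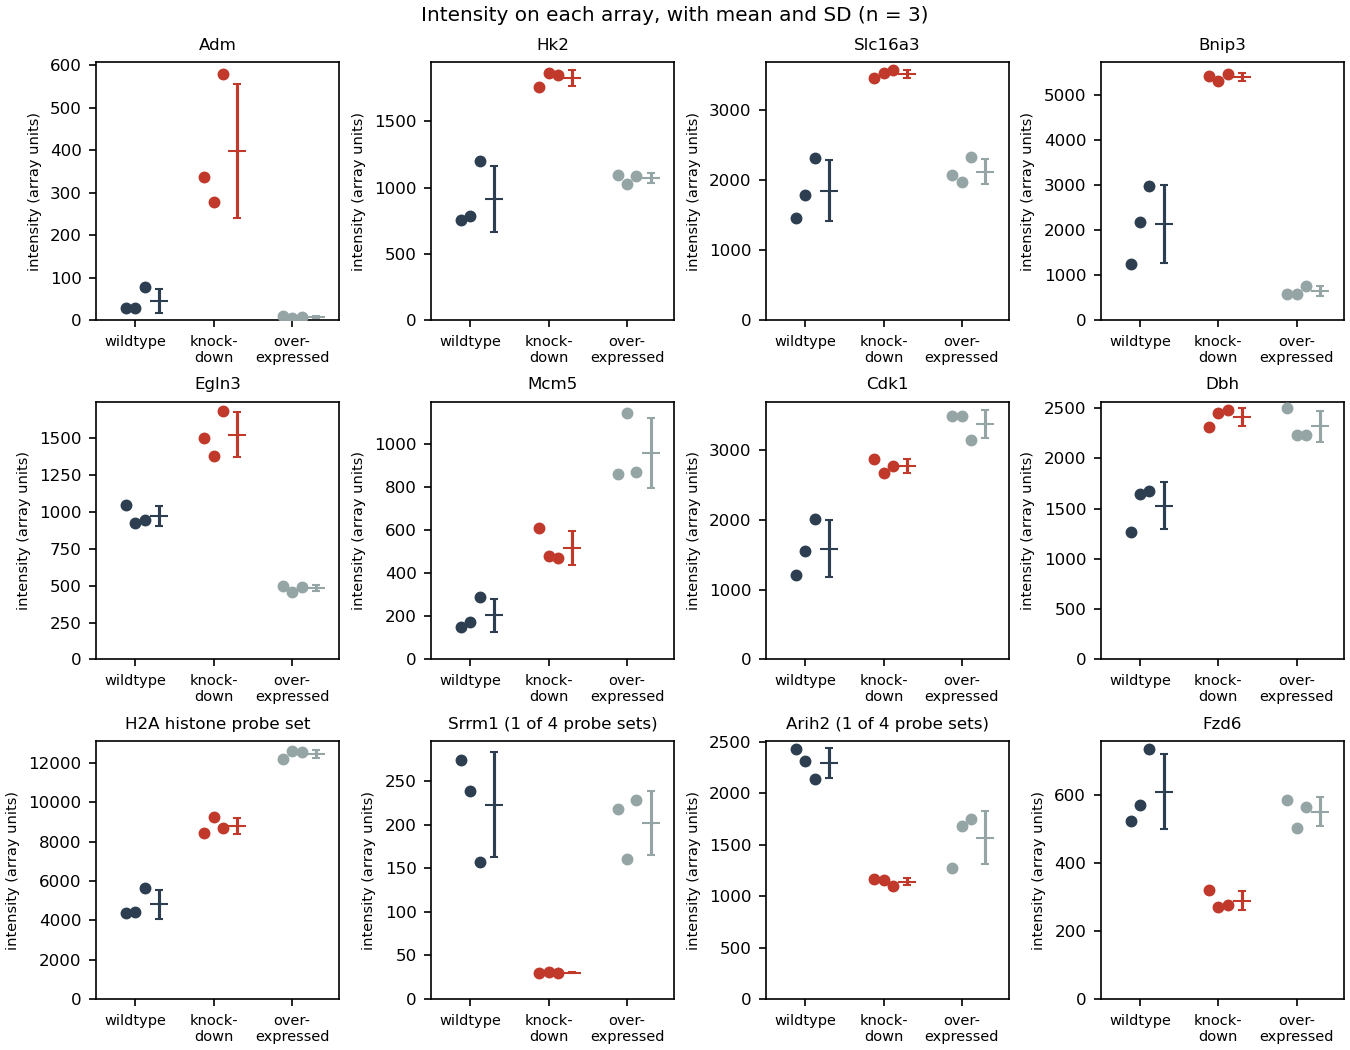
Intensity in array units (vertical axes, from 0) on each of 3 wildtype, 3 knockdown and 3 overexpressing arrays for 12 probe sets, with mean and SD beside the points. The knockdown points of the Srrm1 probe set lie at about 30, and those of Adm at 279 to 578, where wildtype arrays read 29 to 78.

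Genes that low oxygen induces were higher in value in the knockdown arrays, although 0 of 40 passed the limma test at an adjusted p under 0.05, with 15 higher and 1 lower at an unadjusted p under 0.05. Of the 40, 18 lay wholly above wildtype (45% against the 9.68% of all genes) and 1 wholly below (2.5% against 6.69%). The gene lists, this one and those below included, were chosen with earlier results of these data known. Their shares are therefore descriptions and not tests. The list median was 0.31. On the same scale the 3 knockdown arrays had list medians of 0.34, 0.37 and 0.38 and the wildtype arrays -0.12, 0.04 and 0.07, so the groups did not overlap. Adm, Bnip3, Ero1a and Plod2 had an adjusted p under 0.1. Of 18 members with several probe sets, 12 had all of them of 1 sign. The knockdown arrays also stood above the overexpressing ones, where 20 of the 40 were higher at an adjusted p under 0.05 and 0 lower, against 5.25% and 3.56% of all genes. That comparison shares the knockdown arrays with the first. The median of overexpressing minus wildtype was -0.30 for this list, so the overexpressing arrays lay below wildtype as well as below knockdown. Among the 18 wholly above wildtype, array A was the lowest wildtype array for 14 and array C the highest for 11. Leaving out wildtype array A gave a list median of 0.25, and leaving out wildtype array C gave 0.39.

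The letters to which HIF binds were looked up in the promoters of the 4 genes of the hypoxia and glycolysis lists with the smallest p among those wholly above wildtype. Each sequence is the 250 bases before the RefSeq start of the gene in GRCm38.p6, written 5′ to 3′ on the strand of the gene, and capitals mark ACGTG or GCGTG, or on the other strand CACGT or CACGC. Adm lies at chr7:110627407-110627656 on the plus strand, Hk2 at chr6:82774455-82774704 on the minus strand, Slc16a3 at chr11:120948817-120949066 on the plus strand and Ero1a at chr14:45318573-45318822 on the minus strand.
Adm: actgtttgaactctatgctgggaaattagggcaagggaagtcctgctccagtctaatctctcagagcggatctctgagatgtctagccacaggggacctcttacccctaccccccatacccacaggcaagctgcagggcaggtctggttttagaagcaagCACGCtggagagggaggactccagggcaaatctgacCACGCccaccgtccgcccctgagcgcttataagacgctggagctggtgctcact
Hk2: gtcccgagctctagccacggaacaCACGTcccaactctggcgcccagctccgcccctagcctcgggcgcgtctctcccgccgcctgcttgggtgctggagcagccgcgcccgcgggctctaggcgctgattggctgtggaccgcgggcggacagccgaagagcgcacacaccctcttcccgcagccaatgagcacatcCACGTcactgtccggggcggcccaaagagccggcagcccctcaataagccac
Slc16a3: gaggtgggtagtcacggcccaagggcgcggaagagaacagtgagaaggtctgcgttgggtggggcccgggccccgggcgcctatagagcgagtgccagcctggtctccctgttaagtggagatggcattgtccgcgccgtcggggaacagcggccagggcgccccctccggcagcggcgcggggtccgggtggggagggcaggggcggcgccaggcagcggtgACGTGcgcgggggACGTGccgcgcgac
Ero1a: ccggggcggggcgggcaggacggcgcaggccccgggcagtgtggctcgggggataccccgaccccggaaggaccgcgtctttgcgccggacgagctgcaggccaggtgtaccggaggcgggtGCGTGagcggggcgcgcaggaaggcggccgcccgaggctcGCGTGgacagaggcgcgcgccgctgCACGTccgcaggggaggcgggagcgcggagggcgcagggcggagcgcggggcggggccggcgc
Adm, Hk2 and Slc16a3 each held 2 matches and Ero1a 3. In Slc16a3 the nearest began 14 bases before the start, in Hk2 52, in Adm 54 and in Ero1a 63. Of 32851 promoter windows of this length, 12679 held at least 1 match (38.6%). Among windows of all measured members of both lists the share was 76.5%, over 81 windows of 56 of 67 genes. The lists were made of genes of the low-oxygen response and of glucose use, so this share carries no information on the knockdown arrays. Among members wholly above wildtype the share was 80.0%, over 35 windows of 25 of 28 genes, close to that of all members. The list members' windows were richer in G and C, with a median of 62.4% against 52.4%, and of 8534 windows between their quartiles of 56.4% and 68% the share with a match was 56.6%. A match is a run of letters and was not tested as a binding site.

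Among secreted factors, Adm stood out. It encodes adrenomedullin, a vasodilating peptide induced by low oxygen. It read 338, 279 and 578 on the knockdown arrays and 28.6, 29.0 and 78.3 on the wildtype arrays. All 3 knockdown arrays were far above the highest wildtype array, and the log2 difference was 2.78 ± 0.36 (adjusted p = 0.0558 in limma). Against overexpressing arrays, which read 10.3, 4.4 and 6.3, it differed by 4.11 ± 0.36 (adjusted p = 0.000224). Overexpressing minus wildtype was -1.33 for Adm. Its wildtype level is dim, so the scale understates the change. For Vegfa, the vascular growth factor that HIF induces in many cells, the brightest probe set read 797, 974 and 1238 against 1270.2, 1153 and 1028, with overlapping groups and a difference of -0.21 ± 0.15 (adjusted p = 0.656), and was looked up after the values were seen.

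Of 8 hypoxia-induced genes of mitophagy and stress, 6 lay wholly above wildtype (75% against 9.68% of all genes). Bnip3, which tags mitochondria for autophagy, read 5426, 5305 and 5468 against 1247, 2187 and 2985. The knockdown arrays agreed closely while the wildtype arrays were spread widely, and the difference was 1.42 ± 0.25 (adjusted p = 0.0918). Against overexpressing arrays it differed by 3.06 ± 0.25 (adjusted p = 0.000178). Overexpressing minus wildtype was -1.64 for Bnip3. Higd1a, a mitochondrial protein of hypoxic cells, read 3138, 2954 and 3458 against 1541, 1887 and 2413, at 0.73 ± 0.15 (adjusted p = 0.121), with all 3 of its probe sets higher in value. Ndrg1, a stress-induced gene named for its repression by N-myc, had all 5 probe sets higher in value. Its brightest read 884, 877 and 1256 against 658, 579.5 and 569, at 0.71 ± 0.15 (adjusted p = 0.131). Ddit4, an inhibitor of mTORC1, and Ier3, a survival factor, differed by 0.39 ± 0.11 and 0.60 ± 0.12, both without overlap.

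Of 6 genes of matrix, redox and protein folding, 4 lay wholly above (66.7% against 9.68% of all genes) and 1 wholly below wildtype (16.7% against 6.69%). Ero1a, the oxidase that drives disulfide formation in the endoplasmic reticulum, read 3005, 2889 and 3407 against 1949.8, 2139 and 2221. The groups were well apart, at 0.55 ± 0.09 (adjusted p = 0.0701), and all 3 probe sets of the gene were higher in value. Plod2, a lysyl hydroxylase of collagen, read 1464, 1643 and 1254 against 716, 840.3 and 949, at 0.79 ± 0.14 (adjusted p = 0.0918). P4ha1 and P4ha2, which carry the collagen prolyl hydroxylase activity, differed by 0.57 ± 0.13 and 0.34 ± 0.08. Plod1, the close relative of Plod2, was the member below wildtype, at -0.29 ± 0.12. Among pH and metabolism genes, Ak4, a mitochondrial adenylate kinase, read 491, 536 and 522 against 353, 313 and 278, at 0.69 ± 0.13 (adjusted p = 0.1), with 4 of 4 probe sets higher in value. Car12, a carbonic anhydrase that exports acid, differed by 0.58 ± 0.16, while Car9, the other classical one, was at 0.00 and overlapped. Overexpressing minus wildtype was 0.69 for Car12, so its difference was not particular to knockdown.

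Egln3 and Egln1 encode 2 of the prolyl hydroxylases and are themselves HIF targets. Egln3 read 1498, 1380.3 and 1683 against 1047, 921 and 946, at 0.64 ± 0.10 (adjusted p = 0.0701), and differed from overexpressing arrays by 1.62 ± 0.10 (adjusted p = 4.51e-05). Egln1 read 846, 1099 and 967 against 395, 507 and 638, at 0.92 ± 0.17 (adjusted p = 0.0952), but its second, dimmer probe set overlapped, at -0.01. Overexpressing minus wildtype was -0.98 for Egln3 and 0.56 for the brighter Egln1 probe set. Hif1a, the oxygen-regulated subunit, read 2280.3, 1988 and 2037 against 2388, 2318 and 2696. Its messenger RNA was wholly below wildtype, at -0.23 ± 0.09 (adjusted p = 0.378). The arrays measure messenger RNA and not HIF protein. Of the 15 genes of HIF factors and hydroxylases, 4 lay wholly above (26.7% against 9.68%) and 2 wholly below wildtype (13.3% against 6.69%).

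**Figure D3:**
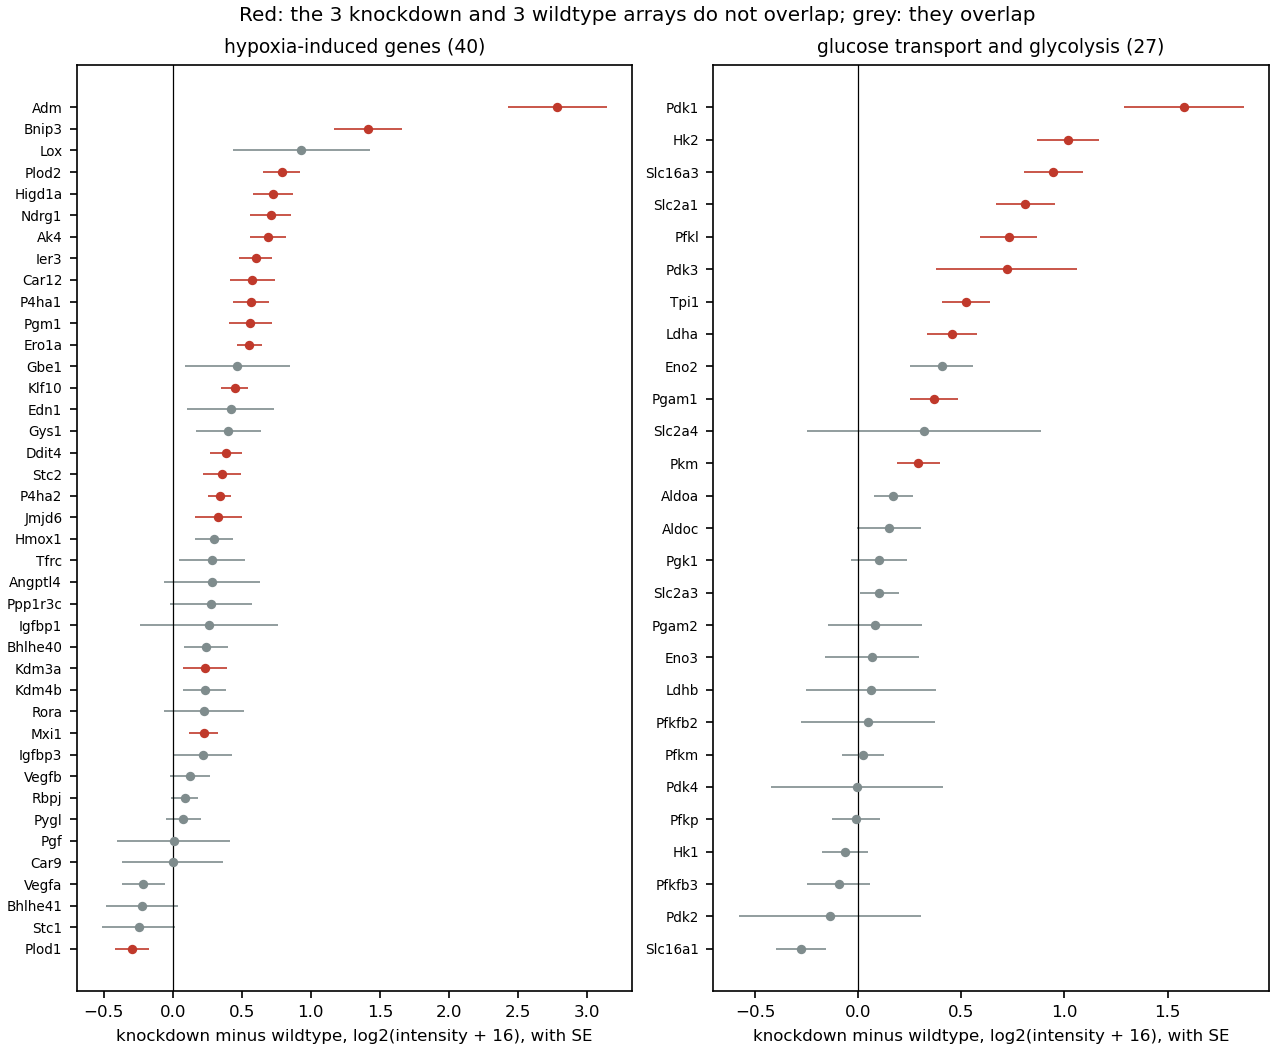
Log2 difference between knockdown and wildtype arrays with its SE (horizontal axes) for each of 40 hypoxia-induced genes on the left and 27 genes of glucose transport and glycolysis on the right. Red genes, 19 on the left and 10 on the right, have groups that do not overlap; Adm, at 2.78, is the farthest to the right.

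Genes of glucose uptake, glycolysis and lactate export were also higher in value. Of 27 genes, 10 lay wholly above and 0 wholly below wildtype, or 37% against 9.68% of all genes, with 0 called by limma and 10 higher and 1 lower at an unadjusted p under 0.05. The list median was 0.15, with array medians of 0.16 to 0.20 in knockdown and -0.05 to 0.00 in wildtype. Of 14 members with several probe sets, 11 had all of them of 1 sign. Wildtype array A was the lowest wildtype array for 10 of the 10 genes wholly above wildtype. Leaving out wildtype array A gave a median of 0.17, wildtype array B 0.26, wildtype array C 0.090 and knockdown array C 0.24. Against overexpressing arrays 12 of the 27 were higher and 0 lower at an adjusted p under 0.05, against 5.25% and 3.56% of all genes. The median of overexpressing minus wildtype was -0.24, so here too the overexpressing arrays lay below wildtype.

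At the entry of the pathway, Slc2a1, the glucose transporter GLUT1, had 3 of 3 probe sets higher in value. Its brightest read 1099, 1066 and 1183 against 510.2, 623 and 783, at 0.81 ± 0.14 (adjusted p = 0.0948), and the second brightest 1316, 1101 and 1191 against 540.4, 490.0 and 675, at 1.07 ± 0.17 (adjusted p = 0.0701). Both sets separated the groups. Hk2, the hexokinase induced by HIF, read 1762, 1868 and 1855 against 754, 786 and 1203. Wildtype array C was the closest to the knockdown arrays, and the difference was 1.02 ± 0.15 (adjusted p = 0.0701). Hk1, the constitutive hexokinase, had overlapping groups at -0.06. Pfkl, a phosphofructokinase, read 3660.3, 3701 and 3698 against 1716, 2399 and 2645, at 0.73 ± 0.14 (adjusted p = 0.1).

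At the exit, Slc16a3, the lactate exporter MCT4, read 3457, 3533 and 3569.5 against 1458, 1782 and 2313. The knockdown arrays varied little and were all above the wildtype arrays, at 0.95 ± 0.14 (adjusted p = 0.0701). Slc16a1, the related transporter MCT1, had overlapping groups, at -0.28. Ldha, lactate dehydrogenase A, read 16837, 16608 and 16542 against 9810.5, 13364 and 13686, at 0.45 ± 0.12 (adjusted p = 0.235). Pdk1, a pyruvate dehydrogenase kinase, read 138, 155 and 164 against 26.7, 36.2 and 63.8, a dim probe set at 1.58 ± 0.29 (adjusted p = 0.0952). Tpi1, Pgam1 and Pkm, enzymes of the middle and lower steps, differed by 0.52 ± 0.12, 0.37 ± 0.12 and 0.29 ± 0.10, each without overlap. The glycolytic enzyme genes Aldoa, Pgk1 and Eno2 overlapped, at 0.17, 0.10 and 0.41, and like Hk1, Slc16a1 and Car9 were picked after their values were seen.

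Subunits of the respiratory chain and of ATP synthase were slightly higher in value. Of 71 genes of oxidative phosphorylation, 22 lay wholly above and 0 wholly below wildtype (31.0% against 9.68%), with 0 called by limma and 14 higher at an unadjusted p under 0.05. The shifts were small, with a median of 0.10, and the knockdown arrays had list medians of 0.13, 0.04 and 0.12 against -0.02 to 0.02 in wildtype. With each array scaled to a common median the list median was 0.06. Ndufb3 of complex I read 2284, 2146 and 2320.5 against 1796, 1756 and 1823, at 0.33 ± 0.08 (adjusted p = 0.173). Atp5o of ATP synthase read 7095, 7982 and 7685 against 5910.1, 6015 and 6319, at 0.32 ± 0.09 (adjusted p = 0.271), while its other probe set had the opposite sign.

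**Figure D4:**
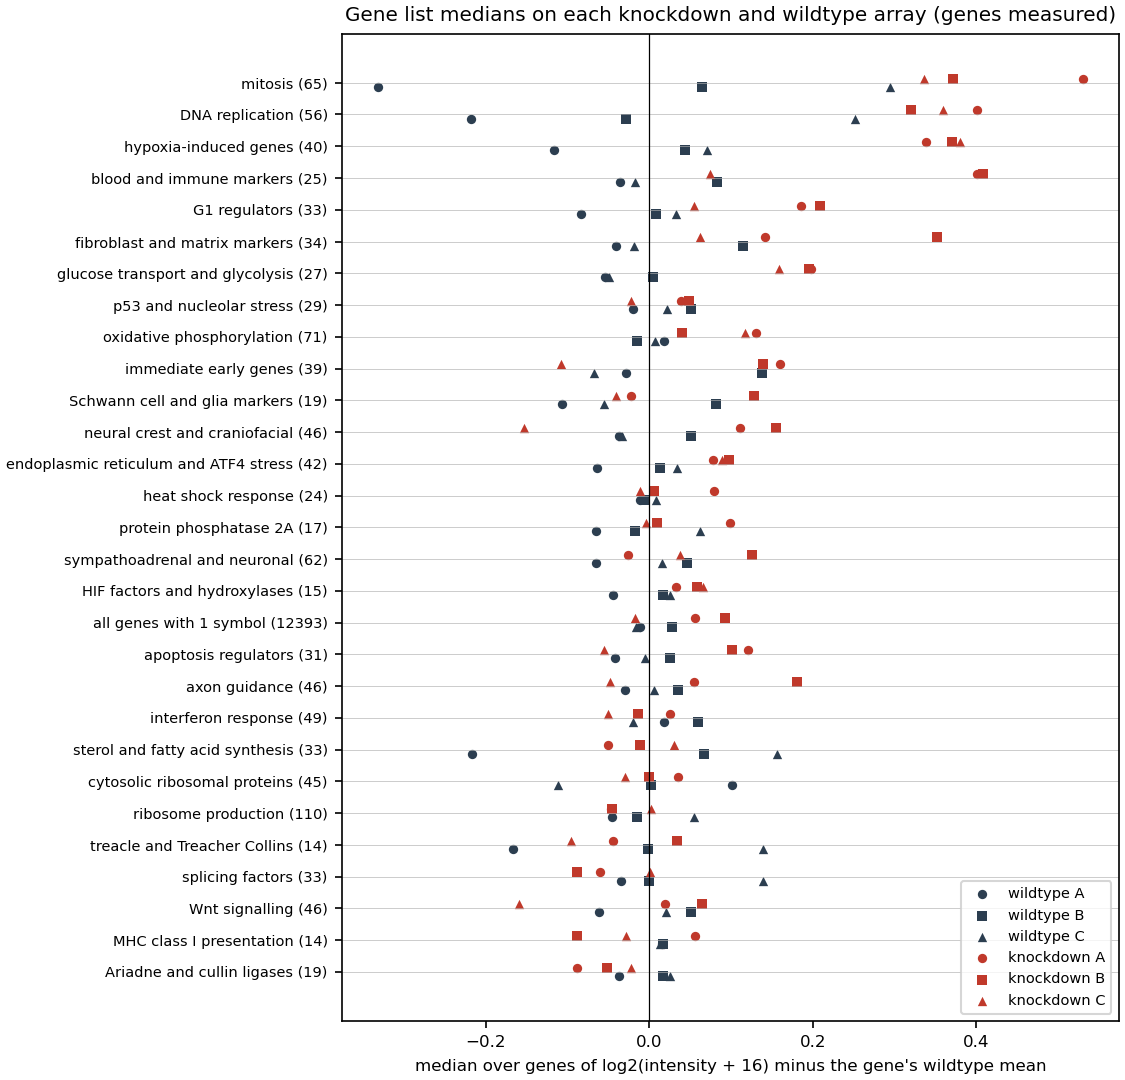
Median over the genes of each list of log2(intensity + 16) minus the gene's wildtype mean (horizontal axis), for each of 28 lists and all genes, on wildtype arrays in dark blue and knockdown arrays in red, with circles, squares and triangles for the letters A, B and C. In the mitosis and DNA replication lists wildtype array A is far to the left and wildtype array C far to the right of its group.

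DNA replication genes were higher in value in the knockdown arrays, and their wildtype arrays differed widely. Of 56 genes, 23 lay wholly above (41.1% against 9.68% of all genes) and 1 wholly below wildtype (1.79% against 6.69%). Limma called 0, with 24 higher and 2 lower at an unadjusted p under 0.05. The list median was 0.35. The wildtype arrays A, B and C had list medians of -0.22, -0.03 and 0.25, against 0.40, 0.32 and 0.36 in knockdown. Among the 23, wildtype array A was the lowest for 21. With wildtype array A left out the list median was 0.25, and with wildtype array C left out 0.50. Against overexpressing arrays 0 were higher and 21 lower at an adjusted p under 0.05, against 5.25% and 3.56% of all genes. The median of overexpressing minus wildtype was 0.96. Of 34 members with several probe sets, 27 had all of them of 1 sign.

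By role, the MCM helicase and GINS genes had the highest median, 0.55 over 10 genes. Mcm5, a helicase subunit, read 608, 478 and 469 against 150.0, 172 and 291. All 3 knockdown arrays were above wildtype array C, the highest of its group, at 1.32 ± 0.22 (adjusted p = 0.0847). Gins1, which joins the helicase to the replisome, read 425, 372 and 394 against 107, 209 and 263, at 1.06 ± 0.25 (adjusted p = 0.178). Pcna, the sliding clamp, read 4948, 4045 and 4602 against 2142, 2884 and 3511, at 0.69 ± 0.15 (adjusted p = 0.148). Of 14 genes of clamp, loader and ligation, 7 lay wholly above wildtype (50% against 9.68% of all genes). For nucleotide supply, Tk1, thymidine kinase, read 714, 909 and 1031 against 318, 347 and 591, at 1.09 ± 0.24 (adjusted p = 0.148), and Rrm2, of ribonucleotide reductase, 898, 607 and 743 against 193, 288 and 535, at 1.21 ± 0.29 (adjusted p = 0.18). The loader subunits Rfc2, Rfc3, Rfc4 and Rfc5 differed by 0.33, 0.52, 0.72 and 0.68, all without overlap. Orc5, of the origin recognition complex, was the member wholly below, at -0.25.

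Mitosis genes had the highest median of the 28 lists, 0.44 over 65 genes, with 0 called by limma. Of the 65, 24 lay wholly above (36.9% against 9.68% of all genes) and 3 wholly below wildtype (4.62% against 6.69%). The wildtype arrays A, B and C had mitosis list medians of -0.33, 0.06 and 0.29, against 0.53, 0.37 and 0.34 in knockdown. Among the 24 wholly above, wildtype array A was the lowest for 23. With all arrays 34 were higher and 1 lower at an unadjusted p under 0.05. The number higher was 17 without wildtype array A, 21 without knockdown array A and 46 without wildtype array C. With wildtype array A left out the median was 0.27, and with C left out 0.58. Of 36 members with several probe sets, 27 had all of them of 1 sign. Against overexpressing arrays 0 of the 65 were higher and 5 lower at an adjusted p under 0.05 in limma, against 5.25% and 3.56% of all genes. The median of overexpressing minus wildtype was 0.80, so these genes were higher still in the overexpressing arrays. Cdk1, the kinase that starts mitosis, read 2873, 2669.7 and 2773 against 1206, 1554 and 2012. The knockdown arrays were close together and above every wildtype array, at 0.82 ± 0.15 (adjusted p = 0.0952). Pbk, a mitotic kinase, read 1477, 1660.5 and 1434 against 536, 880.1 and 1145, at 0.89 ± 0.21 (adjusted p = 0.173). Aurka, the spindle pole kinase, read 743, 849 and 787 against 408, 555 and 630.2, at 0.58 ± 0.14 (adjusted p = 0.193). The 3 members wholly below wildtype, Cdc16, Cdc23 and Anapc1, all encode subunits of the anaphase promoting complex, at -0.28, -0.28 and -0.18. The other probe set of Cdc23 had the opposite sign. Cenpn, a centromere protein found by its p rather than through the list, read 757, 791 and 934 against 393, 512 and 504, at 0.80 ± 0.13 (adjusted p = 0.0701).

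Among regulators of the G1 phase, 9 of 33 lay wholly above (27.3% against 9.68%) and 2 wholly below wildtype (6.06% against 6.69%), with a median of 0.17. E2f1, the factor that switches on replication genes, read 754, 741 and 761 against 339.8, 479 and 633, at 0.66 ± 0.19 (adjusted p = 0.257). Mybl2, an E2F target, read 278, 238 and 244 against 97.9, 136 and 206, at 0.78 ± 0.22 (adjusted p = 0.249). Ccnf, an atypical cyclin, read 682, 335 and 587 against 161, 303 and 247, at 1.10 ± 0.26 (adjusted p = 0.179). Sertad1, a regulator of cyclin D complexes and E2F that the rule named by its p, read 519, 548 and 600.1 against 341, 288 and 308, at 0.80 ± 0.12 (adjusted p = 0.0701). Overexpressing arrays also lay above wildtype, by 1.04 for E2f1, 1.67 for Mybl2, 1.51 for Ccnf and 0.34 for Sertad1.

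A few antiviral effectors among interferon-stimulated genes were lower in value. Of 49, 1 lay wholly above (2.04% against 9.68%) and 8 wholly below wildtype (16.3% against 6.69%), with a median of 0.01, 0 called by limma and 5 lower at an unadjusted p under 0.05. Rsad2, the antiviral protein viperin, read 514, 531 and 382 against 1396, 1110.2 and 763, with 3 of 3 probe sets lower in value. The groups were apart, at -1.14 ± 0.23 (adjusted p = 0.106). Ifit1, which binds uncapped viral RNA, read 275, 256 and 203 against 525, 485 and 396, at -0.89 ± 0.17 (adjusted p = 0.1). Ifit2, a dim relative, was at -0.93 ± 0.21. Both Rsad2 and Ifit1 were higher than in overexpressing arrays, by 1.38 ± 0.23 (adjusted p = 0.00623) and 1.003 ± 0.17 (adjusted p = 0.00753). In MHC class I presentation, Tapbp, the chaperone tapasin, read 591, 616 and 529 against 1047, 1022 and 812, at -0.71 ± 0.12 (adjusted p = 0.0865), while the proteasome subunits Psmb9 and Psmb10 lay wholly above wildtype, at 0.40 ± 0.15 and 0.33 ± 0.12. Of 14 genes of that list, 3 lay wholly above (21.4% against 9.68% of all genes) and 2 wholly below (14.3% against 6.69%). Overexpressing arrays differed from wildtype by -1.09 for Tapbp, -0.32 for Psmb9 and 0.37 for Psmb10.

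Wnt pathway genes had 6 of 46 wholly above (13% against 9.68% of all genes) and 4 wholly below wildtype (8.70% against 6.69%), with a median of -0.03. The 4 of smallest p lay in both directions. Fzd9, a Frizzled receptor on a dim probe set, was higher in value, at 76.9, 28.6 and 56.1 against 19.7, 19.6 and 16, with a difference of 0.96 ± 0.27 (adjusted p = 0.261). Fzd6, another receptor of that family, read 321, 270.2 and 275 against 525, 571 and 735. The groups were well apart, at -1.03 ± 0.14 (adjusted p = 0.057), and the gene's other probe set overlapped. Dkk3, a secreted relative of Wnt inhibitors, read 1582, 1431 and 1579 against 2897, 2359 and 2234, at -0.69 ± 0.12 (adjusted p = 0.0952). Dvl1, which relays the signal inside the cell, read 1491, 1514 and 1418 against 2511, 2403 and 1946, at -0.62 ± 0.12 (adjusted p = 0.1). In the overexpressing arrays the difference from wildtype was -1.12 for Dkk3, -1.07 for Dvl1, -0.13 for Fzd6 and -0.24 for Fzd9. In the neural crest and craniofacial list, 6 of 46 lay wholly above (13% against 9.68%) and 1 wholly below (2.17% against 6.69%). Tbx2, a T-box repressor, was the lower one, at 235, 288 and 324 against 554, 486 and 423 and -0.76 ± 0.14 (adjusted p = 0.1), and its relative Tbx3 was higher, at 0.77 ± 0.21. Id3 and Sox9, factors of crest progenitors, differed by 0.65 ± 0.17 and 0.58 ± 0.15. Overexpressing minus wildtype was 0.91 for Tbx2, 0.67 for Tbx3, 1.62 for Id3 and 0.24 for Sox9.

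Of 62 sympathoadrenal and neuronal genes, 4 lay wholly above (6.45% against 9.68%) and 6 wholly below wildtype (9.68% against 6.69%), with a median of 0.05. Dbh, which converts dopamine to noradrenaline, read 2313, 2447 and 2480.1 against 1266, 1649.9 and 1679. All knockdown arrays were above all wildtype arrays, at 0.66 ± 0.11 (adjusted p = 0.0847). Scg3 and Snap25, of granule and vesicle release, lay wholly below, at -0.30 ± 0.08 and -0.46 ± 0.12. The overexpressing arrays differed from wildtype in the same directions, by 0.60 for Dbh, -0.39 for Scg3 and -0.23 for Snap25. Of 46 axon guidance genes, 6 lay wholly above (13% against 9.68%) and 2 wholly below (4.35% against 6.69%).

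Other genes picked by small p had no list in common. Higher in value were Lrig1, a negative regulator of growth factor receptors, at 367, 369 and 418 against 182, 140.0 and 197 and 1.09 ± 0.18 (adjusted p = 0.0701), Igfbp7, a secreted binding protein, at 0.64 ± 0.11, and Emb, a transporter chaperone, at 0.49 ± 0.09. For Lrig1 and Igfbp7 2 of 3 probe sets had that sign, and for Emb 1 of 2. Between overexpressing and wildtype arrays the difference was -0.18 for Lrig1, 0.75 for Igfbp7 and 0.42 for Emb. Lower in value was Trim35, a RING finger ligase, at 674, 692 and 801 against 1225, 1250.1 and 1132 and -0.73 ± 0.10 (adjusted p = 0.057). Wdr6, a WD repeat protein, read 2397, 2363 and 2373 against 3545, 3283 and 3474, with small spread in both groups, at -0.53 ± 0.07 (adjusted p = 0.057). Ppargc1b, a coactivator of mitochondrial gene expression, read 154, 149.8 and 72.4 against 417, 442 and 356, at -1.63 ± 0.25 (adjusted p = 0.0701). Secisbp2l, related to a selenoprotein translation factor, Slc8b1, the mitochondrial sodium and calcium exchanger, and Impact, an inhibitor of the kinase GCN2, differed by -1.01 ± 0.16, -0.76 ± 0.12 and -0.60 ± 0.10. Lama4, a laminin chain, and Fxyd2, a sodium pump subunit, differed by -0.81 ± 0.15 and -0.59 ± 0.11. Each of these genes had groups without overlap, as the rule required. For the lower ones, overexpressing minus wildtype was -0.57 (Trim35), -0.32 (Wdr6), -0.03 (Ppargc1b) and -0.40 (Secisbp2l). It was -0.93 for Slc8b1, -0.23 for Impact, -0.80 for Lama4 and -0.35 for Fxyd2.

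Ranked by size instead of p, the 10 largest higher differences ran from 1.14 to 2.78 and the 10 largest lower ones from -2.35 to -1.29, among probe sets whose brighter group lay above the median intensity. Besides Adm, Bnip3, Mcm5 and Rrm2, the higher ones included Selenbp1, a selenium-binding protein, at 576, 439.5 and 571 against 24.6, 244 and 249. Wildtype array A was far below the other wildtype arrays, at 1.94 ± 0.59 (adjusted p = 0.29). Tacc3, a stabiliser of spindle microtubules, had 3 of 3 probe sets higher in value, and the one with the largest difference read 244, 165 and 296 against 27.2, 37.3 and 139, at 1.79 ± 0.44 (adjusted p = 0.192). Among the lower ones, Dnm2, the dynamin that cuts vesicles from the membrane, had 7 of 7 probe sets lower in value. The one named read 213, 45.2 and 126 against 371, 382 and 328, at -1.58 ± 0.38 (adjusted p = 0.184). Ddx17, an RNA helicase, and Lima1, an actin-binding protein, each had 3 of 3 probe sets lower in value, at -1.61 ± 0.39 and -1.33 ± 0.28 for the ones named. Men1, the menin tumour suppressor, differed by -1.52 ± 0.46, with 2 of 2 probe sets lower in value. Des, the muscle intermediate filament desmin, read 43.8, 58.8 and 38.3 against 165, 273 and 171, at -1.78 ± 0.40 (adjusted p = 0.163), while its other probe set had the opposite sign. Overexpressing minus wildtype was -2.34 for Selenbp1 and 1.69 for the Tacc3 probe set read above. Among the lower ones it was -0.31 for Dnm2, -2.52 for Ddx17, -1.20 for Lima1, -0.71 for Men1 and -1.52 for Des.

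Markers of cells that the culture should not hold were mostly dim. Of 25 blood and immune markers, 21 were below the median intensity in both groups. Of the 25, 19 were higher in value in knockdown, 4 lay wholly above (16% against 9.68%) and 0 wholly below wildtype, and the median was 0.28. H2-Aa, an MHC class II chain, read 127, 64.8 and 98.1 against 18.2, 55.3 and 21.0, at 1.29 ± 0.43 (adjusted p = 0.314). Coro1a, an actin regulator of leukocytes, and Laptm5, a lysosomal protein of blood cells, were also wholly above, at 0.44 ± 0.13 and 0.61 ± 0.28, and Ms4a1, the B cell marker CD20, overlapped at 0.53 ± 0.25. Overexpressing minus wildtype was 0.17 for H2-Aa, 0.46 for Coro1a, 0.19 for Laptm5 and 0.34 for Ms4a1. The summed intensity of the list was 3295 to 3892 in the knockdown and 3114 to 3267 in the wildtype arrays, and Ptprc, the leukocyte common antigen, read 26.2, 21.8 and 2.6 against 13.1, 24.3 and 30.6. Those sums did not overlap. Like Ptprc, the defining markers Itgam and Cd4 were looked up outside the rule and overlapped. Itgam, a myeloid integrin, read 33.2, 35.7 and 8.4 against 4.7, 18.9 and 19.4, and Cd4, a T cell receptor partner, 25.9, 20.2 and 17.4 against 17.1, 20.7 and 10.3. Knockdown arrays A and B had a median of 0.40 and 0.41 for this list and array C 0.07. Fibroblast and matrix markers summed to 29797 to 32234 against 30332 to 31098, and Schwann cell and glia markers to 8766 to 9027 against 8457 to 10883. Of 34 fibroblast and matrix markers, 22 were below the median intensity in both groups and 1 lay wholly above wildtype (2.94% against 9.68%). Of 19 glial markers, 15 were below the median intensity and 3 lay wholly above wildtype (15.8% against 9.68%). Erbb3, a neuregulin receptor, was the 1 wholly below (5.26% against 6.69%), at -0.25 ± 0.12. Overexpressing minus wildtype was -0.71 for Erbb3. The part of such cells in the results above was not tested.

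**Figure D5:**
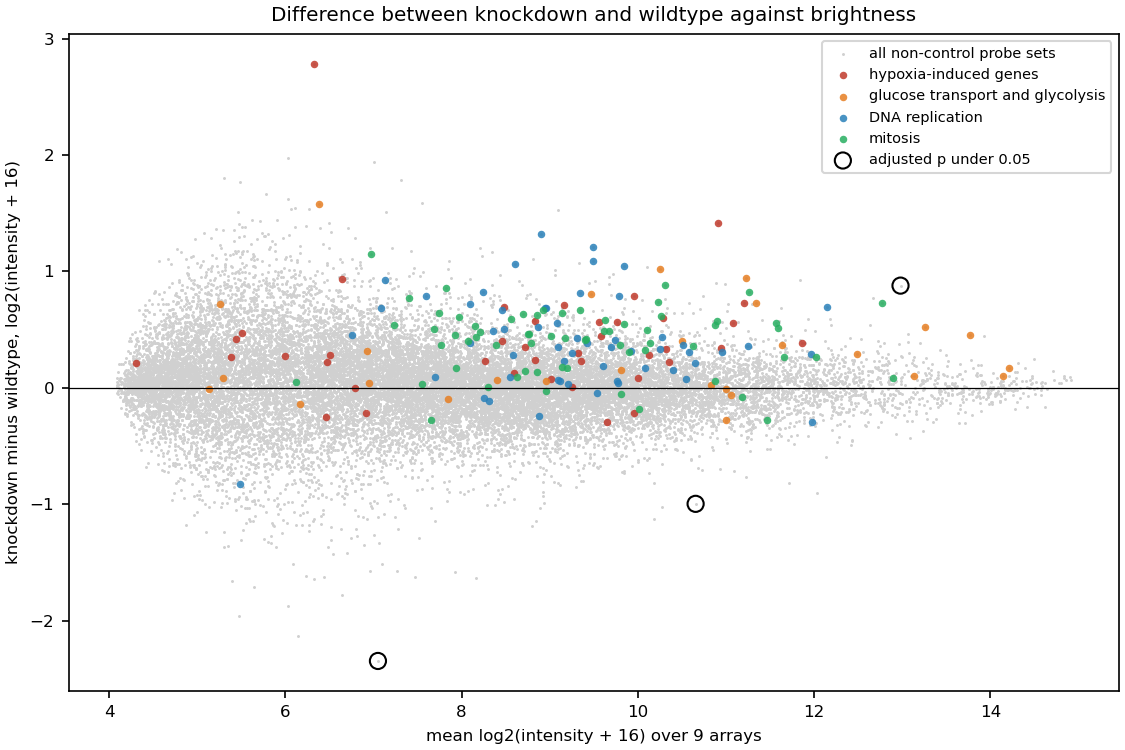
Log2 difference between knockdown and wildtype (vertical axis) against mean log2(intensity + 16) over 9 arrays (horizontal axis) for 22626 probe sets in grey, with 4 gene lists in colour and the 3 calls ringed. Most coloured points lie above 0 among probe sets of middle and high brightness, and the spread of grey points is widest among dim ones.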

How the data were processed

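RNA of N1E-115 cells was measured on 9 arrays of 22690 probe sets, 3 each for Tcof1 knockdown, wildtype and overexpressed Tcof1. The authors deposited 1 linear intensity per probe set and array; the labels do not state the software, background correction or scaling behind it. The deposited values were used without further scaling, as log2(intensity + 16), which shrinks the differences of dim probe sets. After 64 controls were left out, 22626 probe sets were fitted with a mean per group over all 9 arrays, so that the groups share 1 estimate of spread (lmFit and eBayes with a mean-variance trend, limma 3.58.1 in R 4.3.3; Python 3.11.15 and pandas 2.3.3 for tables). Adjusted p are Benjamini-Hochberg values over all 22626, and an error after ± is the SE of the fit with 3 arrays a group. The fit was tested on simulated data. With 3 arrays a group, their number limits how precise a difference is.

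Of the tested probe sets 20380 carry 1 gene symbol in the platform annotation, 691 several and 1555 none, and 20351 of the symbols were found in the RefSeq table. A gene in a list is represented by its brightest probe set. The genes and lists were chosen with earlier results of these data known. Genes are named by rule: Tcof1, calls with the other probe sets of their gene, the 15 higher and 15 lower genes of smallest p and the 10 and 10 of largest difference (groups not overlapping, brighter group above the median intensity), the 4 members of smallest p of each list, and in 10 lists every member without overlap; exceptions are stated. The columns hold 0 samples of other series. Alternatives were other pseudocounts, normalizations, filters, weights, fits on 6 arrays, the replicate letter as a block, and each array left out in turn.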

Additional observations from a re-analysis of the deposited data

How the results depend on the processing

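The 3 calls (1 higher, 2 lower) became 46 (24 and 22) among the brightest 60% of probe sets, 24 (12 and 12) with array quality weights, 59 (38 and 21) at an adjusted p under 0.1, 4 (2 and 2) with a pseudocount of 64, 2 (1 and 1) without probe set types that can match several transcripts, 2 (0 and 2) at a common array median, 1 (0 and 1) with quantile normalization, without the mean-variance trend or with only 6 arrays in the fit, and stayed 3 with a pseudocount of 1. Leaving out 1 array gave 0 to 103 calls, 0 to 68 higher and 0 to 35 lower. Deviations of knockdown and wildtype arrays of 1 letter correlated at -0.01 to 0.05 over all probe sets, which cannot show whether the letters pair the arrays. With the letter as a replicate block there were 0 calls (0 higher, 0 lower), with 1472 higher and 1223 lower probe sets at an unadjusted p under 0.05. The hypoxia median of 0.31 ranged from 0.25 to 0.39 when 1 array was left out, that of glycolysis, 0.15, from 0.090 to 0.26, and the 34 mitosis genes higher at an unadjusted p under 0.05 from 17 to 46. The glycolysis median was 0.12 at a common array median and 0.19 without those probe set types. Of 216 named probe sets, 2 changed sign: the brightest of Tcof1, at -0.0012 with array weights and -0.088 to 0.13 with 1 array left out (lowest without wildtype array A), and the second brightest of Arih2, at -0.023 with array weights and -0.032 to 0.27 with 1 array left out (lowest without wildtype array C). The share of higher values among probe sets at an unadjusted p under 0.05 was 54.6%, and 45.3% at a common array median. Dim probe sets near the pseudocount give no firm fold. The causes were not tested.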

Other observations

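Lists of stress and signalling genes outside the text above held a few members with groups that did not overlap. Of 42 genes of endoplasmic reticulum and ATF4 stress, 10 lay wholly above and 1 wholly below wildtype (23.8% and 2.38%, against 9.68% and 6.69% of all genes), with a median of 0.07 and 0 called by limma, 10 being higher and 1 lower at an unadjusted p under 0.05. Manf, a secreted protein of the stressed endoplasmic reticulum, read 2527, 2206 and 2279 in the knockdown and 963, 1182 and 1719 in the wildtype arrays, at 0.89 ± 0.17 (adjusted p = 0.0995). Dnajb11, a chaperone partner there, differed by 0.51 ± 0.15, and Nupr1, a stress-induced chromatin protein, by -0.67 ± 0.16. In overexpressing arrays the differences from wildtype were 1.14 for Manf, 0.10 for Dnajb11 and -0.13 for Nupr1. Of 24 heat shock genes, 5 lay wholly above and 5 wholly below, 20.8% each way against the same 9.68% and 6.69%. Hspa1b, the inducible HSP70, read 7.7, 7.0 and 2.6 against 53.6, 47.0 and 22.9, at -1.36 ± 0.27 (adjusted p = 0.108), with 2 of 3 probe sets lower in value, while its cochaperone Dnajb1 read 1652, 1978 and 2089 against 1364, 1467 and 1278, at 0.47 ± 0.10 (adjusted p = 0.148). Of 39 immediate early genes, 4 lay wholly above (10.3% against 9.68%) and 6 wholly below (15.4% against 6.69%). Egr1, a growth-factor-induced transcription factor, read 976, 1174 and 879 against 1748, 3274 and 1884, at -1.13 ± 0.22 (adjusted p = 0.106), and its relative Egr4 differed by -0.74 ± 0.23, while Klf10, a factor induced by TGF-beta, differed by 0.45 ± 0.10. Overexpressing minus wildtype was -1.68 for Egr1, -0.74 for Egr4 and -0.14 for Klf10.

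Among guidance cues of the semaphorin family, Sema7a read 137, 154 and 195 against 59.2, 30.4 and 113, at 1.202 ± 0.33 (adjusted p = 0.247), and Sema6b and Sema3e differed by 0.96 ± 0.27 and 0.84 ± 0.35. Sema3e was dim, at 15.8, 40.9 and 9.5 against 3.6, 7.1 and 1.8. Overexpressing minus wildtype was 0.88 for Sema7a, 0.71 for Sema6b and 0.65 for Sema3e. Of 25 genes of semaphorins and their receptors, 14 were higher and 11 lower in value, with a median of 0.02. Of these, 4 lay wholly above (16% against 9.68% of all genes) and 1 wholly below wildtype (4% against 6.69%). Of 33 genes of sterol and fatty acid synthesis, 3 lay wholly above and 3 wholly below wildtype, 9.09% each way against 9.68% and 6.69%. Stard4, a sterol carrier, was at 0.50 ± 0.16. Of 31 apoptosis regulators, 2 lay wholly above (6.45% against 9.68%) and 1 wholly below (3.23% against 6.69%). Of 17 protein phosphatase 2A genes, 1 lay wholly above (5.88% against 9.68%) and 0 below. Of 33 splicing factors, 1 lay wholly above (3.03%) and 4 wholly below (12.1%), against 9.68% and 6.69% of all genes. By chromosome, the median difference of 6188 placed genes over 20 chromosomes lay between -0.02 and 0.05.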
